A study of Cucumis sativus with 11 samples.

Results

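The main effect of salt on leaf RNA was measured in cucumber (Cucumis sativus, cultivar JinYou 1) as the difference between the 6 libraries from plants given sodium chloride and the 5 from plants without it, over both silicon levels. These are all 11 libraries of the series, chosen by treatment alone. With salt there were 3 libraries of salt-treated leaves (75 mM NaCl) and 3 of leaves given 75 mM NaCl and 0.3 mM silicon. Without salt there were 3 libraries of control leaves and 2 of leaves given 0.3 mM silicon alone. Silicon was supplied as sodium silicate, so silicon-fed plants also received some sodium. Treatments lasted 3 days in nutrient solution, and each library came from 3 recently expanded leaves combined. The labels call these biological replicates and do not say whether the leaves of a library came from separate plants.

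Salt reaches leaves in the transpiration stream. It first lowers the water potential around the root, which closes stomata and raises abscisic acid in many plants, and later sodium and chloride build up in leaf cells, where they are moved into vacuoles or kept out of young tissue. Cucumber takes up silicon through membrane channels and transporters, and silicon supply is studied as a means of easing salt injury in this crop. The comparison asks which leaf transcripts salt changed on average over both silicon levels. It does not require a change at each level.

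Each gene was fitted with an additive model, log2(RPKM + 1) explained by salt and by silicon, where RPKM is reads scaled by gene length and library size. The salt term of this model is a weighted mean of both salt contrasts, with 55.6% of its weight on salt minus control and 44.4% on salt plus silicon minus silicon. A gene was called when its Benjamini-Hochberg adjusted p from limma was under 0.05 over the 17408 genes that reached 1 RPKM in 2 libraries or more. The gene IDs of the deposited tables could not be paired with names, since 0 of 20165 matched the 23999 genes of the reference table. Genes are therefore given by ID, without roles, and only the few at the extremes are named. For the same reason the identity of the tissue could not be checked against leaf marker genes. RNA was taken from whole leaves, where a change in the share of a cell type and a change of RNA within cells cannot be told apart.

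Salt changed 2208 genes, 12.7% of those tested. Of these, 1287 (7.39%) were higher and 921 (5.29%) lower with salt. The changes of the lower genes were larger, with a median log2 change of -1.28, against 0.77 in the higher genes and 0.05 over all tested genes. A change of 2-fold or more was found in 408 higher genes (2.34% of those tested) and 632 lower genes (3.63%), and one of 4-fold or more in 100 higher and 230 lower genes. The balance of directions depended on scaling. As deposited, 58.3% of calls were higher, whereas median-of-ratios scaling gave 45.5% (1056 higher, 1266 lower) and quantile normalization 60.7% (1607 higher, 1039 lower). Lower genes outnumbered higher ones among 2-fold calls under each of these scalings, with 744 lower and 352 higher under median-of-ratios scaling, and 669 lower and 438 higher under quantile normalization. No called gene was called in the opposite direction by either. The silicon term of the same fit called 0 genes, with 1359 at an unadjusted limma p under 0.05, against 5129 for the salt term. The smallest adjusted p for silicon was 0.324.

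**Figure D1:**
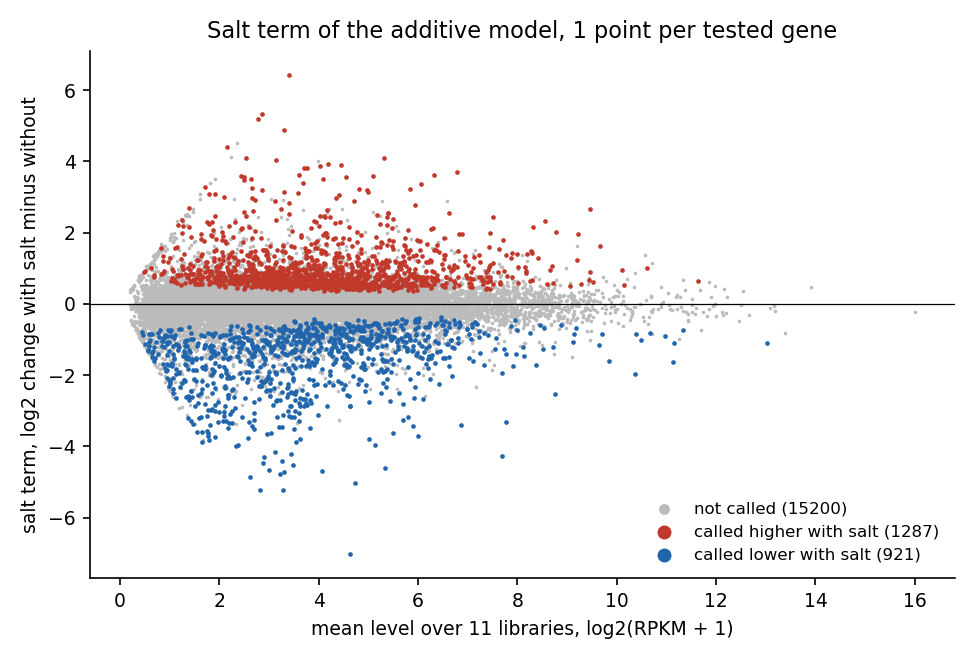
Salt term (log2 change, with salt minus without, silicon as covariate) against the mean level over 11 libraries on the log2(RPKM + 1) scale, 1 point per tested gene, with 1287 genes called higher in red, 921 called lower in blue and the rest in grey. Lower genes reach further from 0 than higher genes, with medians of -1.28 and 0.77.

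The number of calls rested in part on single libraries. It was 945 without silicon 2, 1221 without salt plus silicon 3, 1234 without salt 3 and 1255 without control 1, and lay between 1502 and 2132 without any one of the others. In all 11 fits that left out 1 library, 837 genes were called in the same direction, 37.9% of the 2208. They comprised 510 higher and 327 lower genes, 39.6% and 35.5% of each direction, and 288 and 272 of them changed 2-fold or more. For 11203 genes (64.4%) the 95% interval of the salt term lay within 2-fold in either direction, and 10699 of these were not called. The median standard error (SE) of the salt term was 0.17 for genes called higher, 0.28 for those called lower and 0.21 over all tested genes.

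Every library with salt lay above every library without it in 1116 genes (6.41% of those tested) and below it in 438 (2.52%), 1554 genes or 8.93% in all. Of the genes called higher, 893 were separated in this way, and of those called lower 401. A further 260 genes did not overlap and were not called. The other 914 called genes had at least 1 library on the far side of another.

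The largest rise among genes called, changed 2-fold or more, without overlap and with no library at 0 was that of Csa3G818250. It stood at 102, 196 and 128 RPKM in salt 1 to 3 and 135, 129 and 214 in salt plus silicon 1 to 3, against 3.53, 8.21 and 7.96 RPKM in control and 7.79 and 11.8 in silicon libraries. All 6 libraries with salt were thus above 100 RPKM and all 5 without it below 12. The salt term was 4.09 ± 0.26 on the log2(RPKM + 1) scale (SE, limma adjusted p = 5.16e-05), and the change was 3.88 with silicon and 4.26 without it. The interaction, which is the salt change with silicon minus that without, was -0.38 ± 0.52 (SE, limma adjusted p = 0.731).

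Csa3G874380 stood at 31.4, 199 and 41.8 RPKM in salt 1 to 3 and 78.1, 59.8 and 129 in salt plus silicon 1 to 3, against 5.68, 4.83 and 3.90 RPKM in control and 1.98 and 4.74 in silicon libraries. Salt 2 was the highest, and the groups did not overlap. The salt term was 3.89 ± 0.45 (SE, limma adjusted p = 0.00126), with 4.37 with silicon and 3.50 without it.

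Under the same conditions (2-fold or more, no overlap and no library at 0), the largest fall was that of Csa7G432480. It stood at 0.673, 2.02 and 0.967 RPKM in salt 1 to 3 and 0.738, 2.38 and 0.885 in salt plus silicon 1 to 3, against 60.5, 15.8 and 5.18 RPKM in control and 359 and 182 in silicon libraries. The libraries with salt were close to each other, while those without it ranged over control 3, the lowest, to silicon 1, the highest. The salt term was -4.77 ± 0.76 (SE, limma adjusted p = 0.00435). The change was -6.85 with silicon and -3.11 without it, and the interaction of -3.74 ± 1.06 did not pass the test (SE, limma adjusted p = 0.0989).

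Csa5G366670 had the same order of groups. It stood at 2.56, 1.56 and 0.605 RPKM in salt 1 to 3 and 2.59, 2.54 and 1.80 in salt plus silicon 1 to 3, against 80.9, 12.9 and 5.20 RPKM in control and 241 and 361 in silicon libraries. The salt term was -4.54 ± 0.76 (SE, limma adjusted p = 0.00569), with -6.49 with silicon and -2.97 without it. Without both libraries of silicon alone, the silicon covariate takes up the salt plus silicon group. The salt term is then salt minus control, the change without silicon given above. In that fit the call of Csa5G366670 was lost (limma adjusted p = 0.0609) and the salt term of Csa7G432480 was -3.11 (limma adjusted p = 0.0417). These 4 genes were picked for the size of their change and for groups that did not overlap, so their p-values are not independent of the choice.

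**Figure D2:**
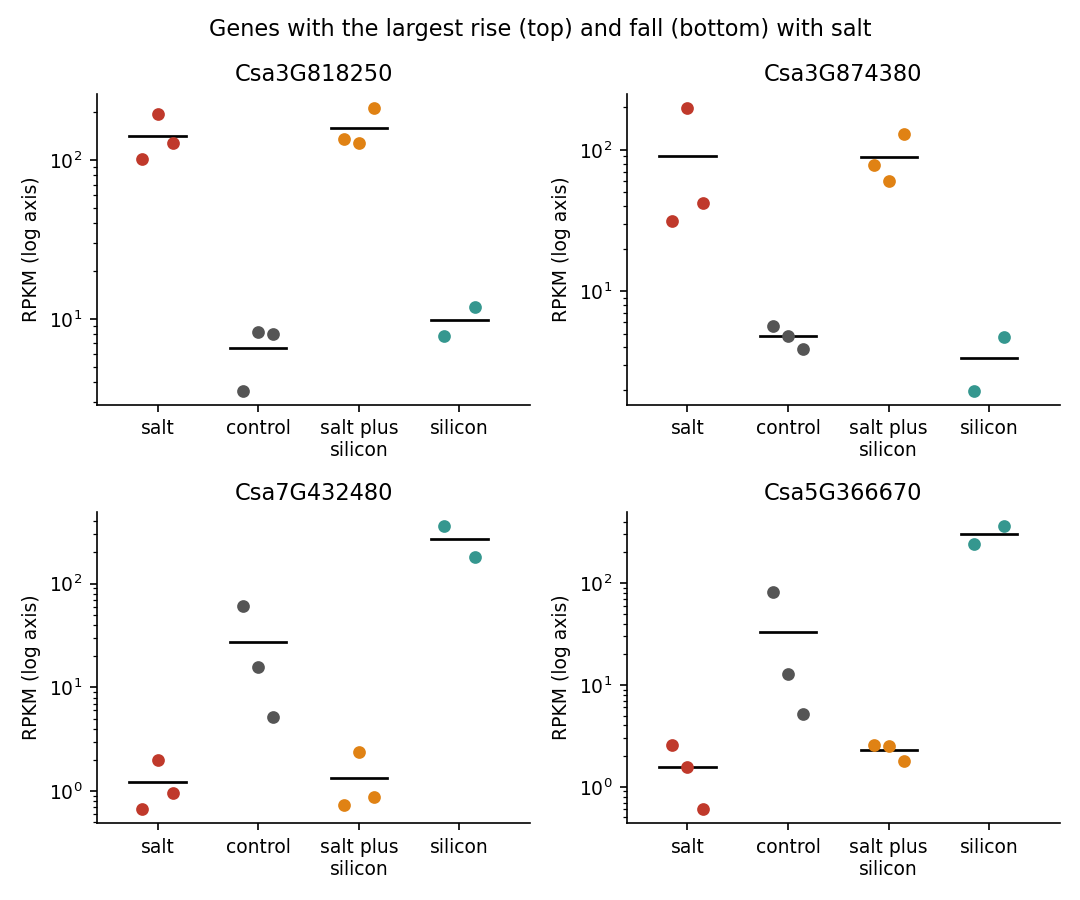
RPKM on a log axis in each library (points) of the 2 genes with the largest rise (top) and the 2 with the largest fall (bottom), with the mean of each group as a line (n = 3 salt, 3 control, 3 salt plus silicon and 2 silicon). In Csa7G432480 and Csa5G366670 the salted libraries lie together at or below 2.59 RPKM and the silicon libraries, at 182 RPKM or more, lie above control.

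Salt changes at least 1 log2 unit apart between silicon levels were found in more of the lower than of the higher genes. The median log2 change of the 1287 higher genes was 0.71 for salt plus silicon minus silicon and 0.85 for salt minus control. For the 921 lower genes it was -1.33 with silicon and -1.11 without. These medians are raised by the choice of genes, which used both contrasts. The choice also bears on differences between levels, since the residual of the additive model holds the interaction. Lower genes had larger changes and a larger SE. Counts at a fixed cut, and of interactions, therefore describe the 2 directions and do not test a difference between them. Among the lower genes, 307 (33.3%) fell by at least 1 log2 unit more with silicon and 85 (9.23%) by at least 1 unit more without. Among the higher genes these numbers were 21 (1.63%) and 45 (3.50%). Over all tested genes, the salt change was lower by at least 1 log2 unit with silicon in 13.9% and higher by as much in 5.64%.

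The interaction was tested in a fit of 4 group means, which called 339 genes (1.95% of those tested). It was called in 47 of the 921 genes lower with salt and 4 of the 1287 higher ones, 51 in all, and 43 of the 47 and 4 of the 4 were negative. All tested genes leaned the same way, with a median interaction of -0.15, against -0.25 in the lower and -0.14 in the higher genes. An unadjusted interaction p under 0.05 was found in 335 lower genes (36.4%) and 111 higher genes (8.62%), against 19.5% of all tested genes. The count of 51 depended on single libraries. It was 3 and 5 without silicon 1 and 2, 4, 8 and 5 without salt plus silicon 1 to 3, 14 and 13 without salt 1 and 3, and 9 without control 2, while it was 51 to 70 without any one of the other 3. It was 17 with a pseudocount of 0.1. The other 288 genes with an interaction were not called for the salt term.

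The 4 genes below were picked for extreme interactions among genes past its threshold. Their interaction p-values are thus not independent of the choice. Csa4G049610 had the most negative interaction among genes called for salt with no library at 0. It stood at 1.08, 0.426 and 0.712 RPKM in salt 1 to 3 and 0.539, 0.370 and 0.433 in salt plus silicon 1 to 3, against 7.03, 3.04 and 0.866 RPKM in control and 82.3 and 91.3 in silicon libraries. Salt 1 exceeded control 3, so the groups overlapped, and the silicon libraries stood apart. Its interaction was -4.73 ± 0.65 (SE, limma adjusted p = 0.013). Csa6G401340 followed with -4.42 ± 0.83 (SE, limma adjusted p = 0.0344), from means of 0.439 RPKM in salt, 0.239 in salt plus silicon, 3.19 in control and 64.3 in silicon libraries. Its control libraries stood at 7.66, 1.16 and 0.762 RPKM and its silicon libraries at 90.6 and 38. The highest library with salt was salt 1 at 0.727 RPKM, below the 1 RPKM added before taking logs. Csa3G646510 had the most positive interaction, 2.50 ± 0.47 (SE, limma adjusted p = 0.0337). Its mean RPKM was 32.0 ± 2.78 with both treatments (SD, n = 3), against 62.6 ± 14.2 for silicon alone (n = 2), and 11.6 ± 5.08 for salt alone, against 133 ± 42.9 for control (n = 3 each), so its fall was smaller with silicon. Csa3G149910, at 121 ± 41.3 against 145 ± 23.9 RPKM with silicon and 79.6 ± 6.07 against 388 ± 96.5 RPKM without, had an interaction of 1.95 ± 0.37 (SE, limma adjusted p = 0.0354). The call of Csa4G049610 was lost without silicon 1 (limma adjusted p = 0.0608), and those of the other 3 in 7 to 9 of the 11 fits that left out 1 library, with limma adjusted p up to 0.183. All of these 3 were lost without control 2, salt 1, silicon 1 or any one salt plus silicon library, and Csa3G646510 and Csa3G149910 also without silicon 2, and Csa3G149910 and Csa6G401340 also without control 3 or salt 3. The salt term, too, was lost for Csa3G149910 without any one control or salt library or salt plus silicon 3, for Csa4G049610 without control 1, salt plus silicon 3 or either silicon library, and for Csa6G401340 without control 1 or any one library with silicon (limma adjusted p = 0.051 to 0.0838). Without both silicon-alone libraries the salt term is salt minus control. It was -1.19 for Csa4G049610 (limma adjusted p = 0.141) and -1.18 for Csa6G401340 (limma adjusted p = 0.199). The interaction of Csa6G401340 was also lost with a pseudocount of 0.1 (limma adjusted p = 0.0779) and that of Csa3G149910 under median-of-ratios scaling (limma adjusted p = 0.0552). With a block for the replicate numbers, the interactions of Csa3G646510 (limma adjusted p = 0.0675) and Csa3G149910 (limma adjusted p = 0.0768) were lost, and those of Csa4G049610 and Csa6G401340 held. Under this block the salt terms of Csa3G149910, Csa4G049610 and Csa6G401340 were lost too (limma adjusted p = 0.0649, 0.0523 and 0.0516).

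**Figure D3:**
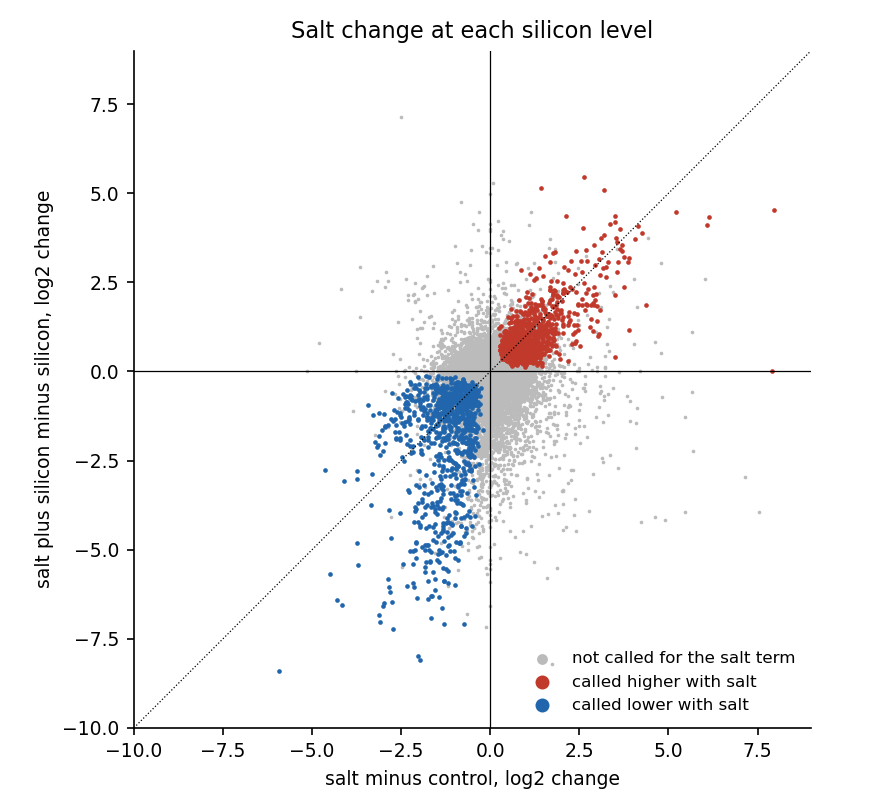
Log2 change for salt plus silicon minus silicon (vertical) against salt minus control (horizontal), 1 point per tested gene, with genes called higher for the salt term in red, lower in blue and the rest in grey, and equal changes on the dotted line. Higher genes lie near the line, and a group of lower genes lies well below it, 307 of 921 by at least 1 log2 unit.

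Both salt contrasts share no library, so genes chosen at one silicon level were read at the other. When the salt and control libraries were fitted alone, 105 genes were called higher (0.603% of those tested) and 91 lower (0.523%). In the salt plus silicon and silicon libraries, 93 of the 105 (88.6%) were higher with salt, against 49.7% of all tested genes, with a median log2 change of 1.28. Of the 91, 83 (91.2%) were lower there, against 50.1% of all tested genes, with a median of -0.92.

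In the opposite direction, the salt plus silicon and silicon libraries fitted alone gave 453 higher (2.6%) and 1373 lower genes (7.89%). Of the 453, 414 (91.4%) were higher in salt than in control, against 58.0% of all tested genes, with a median of 0.83. Of the 1373, 909 (66.2%) were lower, against 41.7% of all tested genes, and their median log2 change was -0.26, against -1.95 at the level where they were chosen. Without control 1, 662 of the 1373 (48.2%) were lower, against 36.7% of all tested genes, and without control 3 it was 76.0%. How many of the lower genes kept their direction without silicon thus depended on which control libraries were read. The median at the level of choice is enlarged by the choice itself, and the median at the other level is not. The choice in salt and control libraries was itself thin once a library was left out, with 10 higher genes and 9 lower without control 2, of which 2 (20.0%) and 5 (55.6%) kept their sign.

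In the fit of 4 group means, salt plus silicon minus silicon called 1719 genes (9.87%) and salt minus control 1587 (9.12%). Of the genes called for the salt term, 347 passed in both, 221 higher and 126 lower, and 711 in neither, 486 higher and 225 lower. The rest passed at 1 level. Among higher genes 139 passed with silicon only and 441 without only, and among lower genes 359 with silicon only and 211 without only. These counts compare lists and do not test a difference between levels.

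The levels of the called genes were followed library by library, as a description of genes chosen by these same values. The median RPKM of the 1287 higher genes was 18.9, 20.0 and 18.8 in salt and 18.3, 18.4 and 22.7 in salt plus silicon libraries, against 9.60, 8.21 and 8.82 in control and 10.6 and 10.3 in silicon libraries. The 921 lower genes had 7.70, 6.85 and 5.36 in salt and 8.11, 8.24 and 6.44 in salt plus silicon libraries, against 23.5, 16.4 and 13.8 in control and 31.0 and 34.2 in silicon libraries. Libraries without salt thus held nearly the same level of the higher genes, while for the lower genes silicon 2 stood at the top and control 3 at the bottom. The higher genes held 7.04% to 8.99% of the summed RPKM in libraries with salt and 3.11% to 3.79% in those without. The lower genes held 3.41% to 4.27% with salt and 8.17% to 12.2% without.

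Each library was then placed by genes called in a fit without it, although the filter of 1 RPKM in 2 libraries had used all 11. The additive model was fitted without that library, and its value in every gene called there was expressed as a percentage of the fitted salt change. This change is the same for both silicon levels, and only the fitted level without salt (0%) shifts with silicon. The level with salt is 100%. Where the salt change of a gene differed between silicon levels, these fitted levels were not those of each group. For genes called higher, the median position lay between 75.7% and 115% in the 6 libraries with salt and between 1.06% and 32.5% in the 5 without, so all 11 were nearer to their own side. Salt plus silicon 3 had the highest value and silicon 1 the highest of those without salt.

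For genes called lower, medians in libraries with salt were 60.7%, 59.6% and 98.7% in salt 1 to 3 and 89.7%, 88.3% and 124% in salt plus silicon 1 to 3. In libraries without salt they were -16.2%, 26.8% and 61.4% in control 1 to 3 and 29.8% and -1.92% in silicon 1 and 2. Control 3 was the exception, with 59.8% of the 1052 genes called lower without it nearer to the level with salt, a position like those of salt 1 and salt 2. For the higher genes, 21.3% of 1080 lay on that side in control 3. Within groups the lower genes varied more, with a median SD on the log2 scale of 0.37 with salt and 0.42 without, against 0.24 and 0.23 for higher genes and 0.30 and 0.32 for all tested genes.

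**Figure D4:**
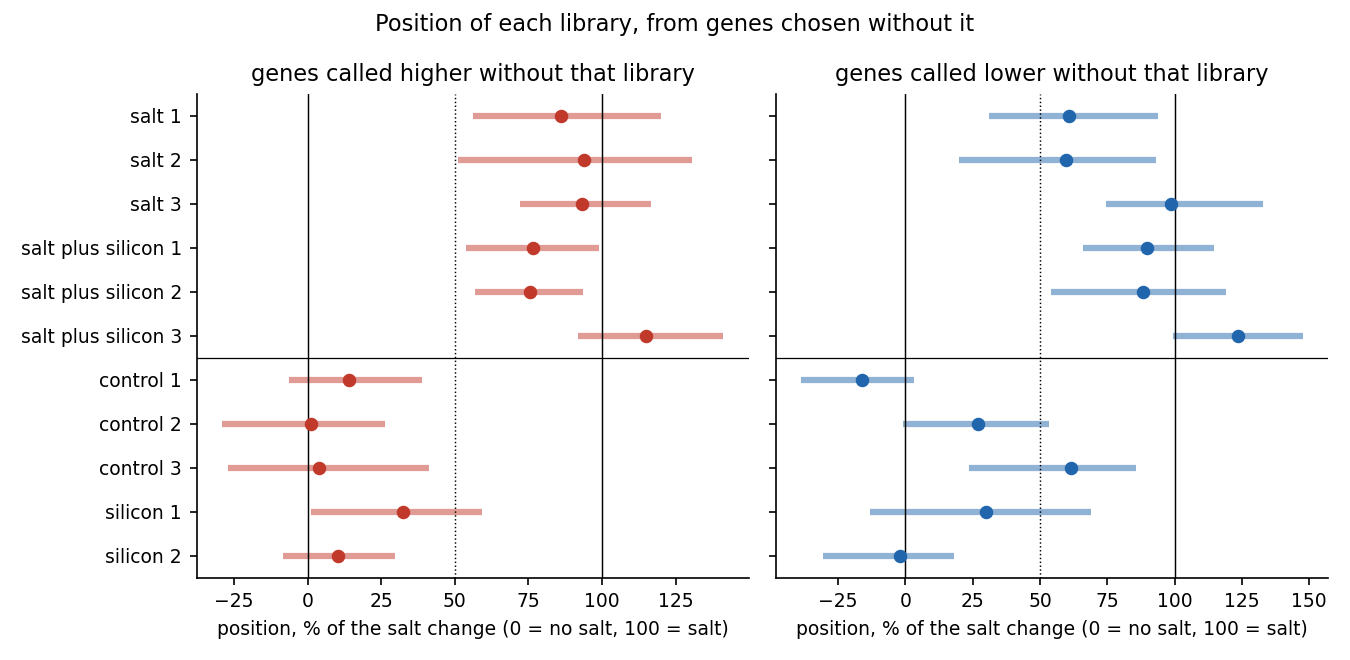
Median position (points) and middle 50% of genes (bars) of each library between the fitted level without salt (0%) and with salt (100%), from genes called higher (left) or lower (right) in fits that left that library out. Libraries with salt stand in the upper rows, above the horizontal line, and those without in the lower rows, and the dotted line is at 50%. For lower genes control 3 lies at 61.4%, among the salted libraries.

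Over all tested genes, salt accounted for 27.2% of the variance on the log2 scale beyond silicon, silicon for 11.5% beyond salt and the interaction for 14.8%, while 47.1% lay within groups. These shares were not corrected for degrees of freedom, so a term without any effect would also take up part of the variance. The share of silicon is thus no sign of an effect by itself. The silicon term called 0 genes, but it averages over both salt levels and leaves out the interaction, which called 339 genes. It therefore does not show that silicon changed nothing.

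Calls were spread over the range of levels. Tested genes were split by mean level into 4 groups of 4352. In the lowest group, with a median of 1.97 RPKM, 3.91% of genes were called higher and 5.01% lower. In the next groups, with medians of 7.50, 19.2 and 68.8 RPKM, 8.78%, 9.17% and 7.72% were called higher and 5.51%, 5.22% and 5.42% lower. The share of lower genes thus hardly changed with level, and that of higher genes was smallest in the lowest group, where the median SE of the salt term was 0.276, against 0.188 to 0.217 in the others. With 0.1 RPKM added before taking logs in place of 1, the lowest group held 17.7% of all calls, against 17.6% as reported.

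**Figure D5:**
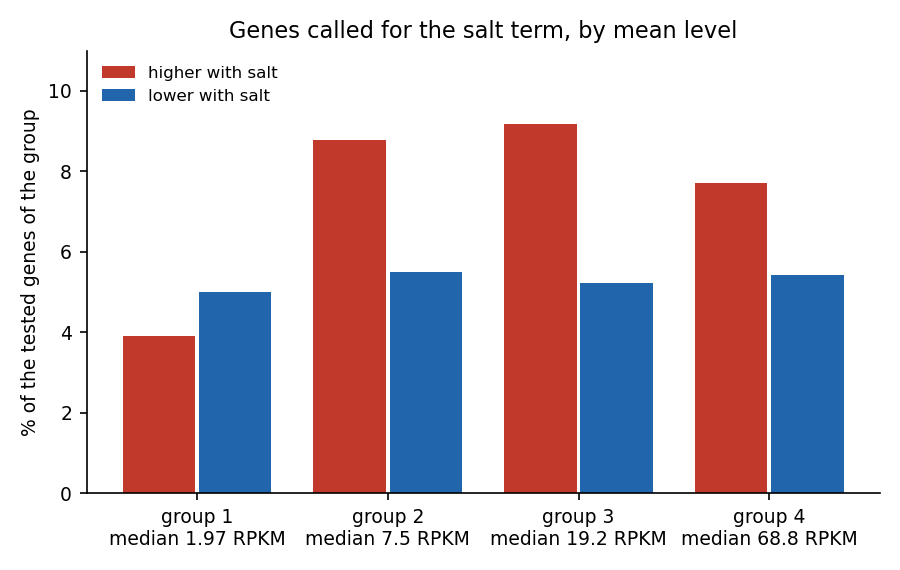
Percentage of tested genes called higher (red) and lower (blue) for the salt term in each of 4 groups of 4352 genes by mean level over the 11 libraries, with the median RPKM of the group below each pair of bars. Higher genes range from 3.91% to 9.17% and lower genes from 5.01% to 5.51%.

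The digit in a gene ID is the chromosome in the naming scheme of the cucumber genome, and the number after it rises along the chromosome. By this digit, 6.78% to 7.87% of the tested genes of chromosomes 1 to 7 were called higher, with the lowest share on chromosome 2 and the highest on chromosome 3. For lower genes the range was wider, with 3.60% on chromosome 7 and 4.32% on chromosome 1 at the low end and 6.31% on chromosome 6 at the high end. Of the 1287 higher genes, 140 (10.9%) had a higher gene next in ID order among the tested genes, against 7.39% of all tested genes. Of the 921 lower genes, 99 (10.7%) had a lower gene next, against 5.29%. A neighbour called in the opposite direction followed 3.26% of higher and 5.75% of lower genes. Libraries did not keep strand, so reads of overlapping neighbours may have been shared between them. Reads of recent tandem copies may have been shared as well, whether or not strand is kept. Neither was tested.

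Some genes were listed at 0 on one side. Among tested genes, 103 were listed at 0 in all 5 libraries without salt and 74 in all 6 with salt. The salt term called 12 of the 103 (11.7%) and 14 of the 74 (18.9%), against 12.7% of all tested genes. These genes passed the level of 1 RPKM only through the other side, so the direction of such calls was set by how they were listed. Of the 103, 1 was above 0 in all 6 libraries with salt, and of the 74, 2 were above 0 in all 5 without. One of the 12 was also at 0 in all libraries of 1 salted group, so that its call rests on the other group alone. A listed 0 may reflect either no reads or no estimate, so these genes are given no fold change.

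The libraries were close in depth. The step of 1 read in genes under 0.3 RPKM gave depths of 0.868 (salt 2) to 1.16 (salt plus silicon 3) relative to control 1, and absolute depth is unknown. The summed RPKM of a library was lower with salt, at 974471 to 1015275 (median 994056) in the 6 libraries with salt, against 1062791 to 1117426 (median 1092546) in the 5 without, with no overlap. The difference adjusted for silicon was -94826, or -8.71% of the mean without salt (exact permutation within silicon levels, two-sided p = 0.005, adjusted over 3 such measures 0.015). This unadjusted p is the smallest that the 200 arrangements can give. The number of genes listed at 0 ran from 1982 to 2284 with salt and from 1711 to 2397 without (exact p = 0.655, adjusted 0.88), and the median RPKM of tested genes from 10.5 to 12.8 and from 9.14 to 13.4 (exact p = 0.88, adjusted 0.88).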

How the data were processed

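Leaf RNA was measured by poly(A) RNA-seq in libraries that do not keep strand, per the labels' protocols. The authors deposited 1 RPKM value per gene and library, as the tables are named. TopHat2 was among the tools, per the submitters' processing notes. Its version and the counting program, genome build and gene models were not given in the sources used here. Depth being unknown, no counting interval was computed. Steps of 1 read were not exact enough to recover whole reads.

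Values were taken as log2(RPKM + 1) and modelled in limma 3.58.1 (R 4.3.3) with a variance trend on mean level and without a replicate block. The additive model has 8 residual degrees of freedom and the 4 group means 7. Tests were two-sided. P-values measure the spread between libraries of pooled leaves. The fit was tested on simulated data. Tables and plots used Python 3.11.15, pandas 2.3.3, numpy 2.4.6 and matplotlib 3.10.9.

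Named genes were the 2 largest rises and the 2 largest falls among 2-fold calls whose groups did not overlap and held no zeros, and the 2 most positive and 2 most negative interactions among salt calls without zeros. Gene lists by product name could not be applied without names. The comparison and rules were chosen with earlier results of these data known. Alternatives were a pseudocount of 0.1, no filter, a filter of 5 RPKM, 2 other scalings, no silicon covariate, equal weight on both levels, a replicate block, robust moderation, library weights, and leaving out libraries or genes at 0 throughout one side. Reading the cross-level, held-out, ID-order, level and single-value results under alternatives was added after seeing the data.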

Additional observations from a re-analysis of the deposited data

Results flagged for a closer look

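Of 30 sets of libraries with or without salt that were examined for a value far from the rest, 1 had such a value, where chance gives about 1 in 20. Csa3G149910 stood at 169 RPKM in salt plus silicon 1, with the next highest of the 6 libraries with salt at 99.9 RPKM. These sets hold both silicon levels. Without salt plus silicon 1 its interaction was 1.68 (limma adjusted p = 0.0612).

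The salt change differed between silicon levels, by the interaction test, in 51 of the 2208 genes called for the salt term. Over all tested genes this test called 339 of 17408 (1.95%). The count of 51 depended on single libraries, and it was 9 with a replicate block. Among the genes named for the interaction, its value was 2.50 for Csa3G646510, 1.95 for Csa3G149910, -4.73 for Csa4G049610 and -4.42 for Csa6G401340.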

How the results depend on the processing

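Counts of salt calls moved with the libraries left out and with the weight given to them. There were 3763 (1966 lower) with library weights, 1511 lower genes with equal weight on both silicon levels, and 1300 (837 higher, 463 lower) without both silicon-alone libraries. In the last of these fits the salt term was salt minus control. Same-numbered deviations correlated between -0.195 and 0.156, and differently numbered pairs were not read beside them. Whether the numbers in the titles mark a pairing of libraries can thus not be told. A replicate block gave 1328 calls (774 higher, 554 lower) and 9 with an interaction. The smaller pseudocount gave 17 with an interaction. Salt against control gave 196 calls with its libraries fitted alone.

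The share of calls in the lowest of the 4 level groups, 17.6%, was 9.92% without a filter, 23.4% with the filter of 5 RPKM, 15.6% without the silicon covariate, 20.2% with equal weight, 15.3% with the block, 21.0% with library weights and 11.1% without both silicon-alone libraries. In ID order, shares have to be read against the share of all tested genes called in the same fit, since both move with the number of calls. The share of lower genes followed by another was 8.14% without a filter, 13.0% with median-of-ratios scaling, 13.3% with quantile normalization, 8.32% without the covariate, 16.0% with equal weight, 7.58% with the block, 19.2% with library weights (11.3% of all tested genes) and 5.62% without both silicon-alone libraries (2.66% of all tested genes). For higher genes it was 12.8% after quantile normalization, 8.91% with the block, 14.8% with library weights and 8.85% without both silicon-alone libraries. Over all these fits, those without 1 library included, the share was 1.31 to 2.48 times that of all tested genes for higher genes and 1.67 to 2.61 times for lower genes, against 1.47 and 2.03 times as reported. Read at the other level, 73.7% of lower genes chosen with silicon had the same sign under median-of-ratios scaling, against 51.0% of all tested genes there. Quantile normalization gave 73.4% for these (47.9% of all tested), 85.3% for higher genes chosen with silicon (51.8%) and 83.1% for lower genes chosen without it (39.1%). Under median-of-ratios scaling the difference in median RPKM turned to -0.41 and that in summed RPKM was -155090 (exact permutation p = 0.015).

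With 1 library left out, calls ran from 945 to 2132, higher genes from 593 to 1086, lower genes from 352 to 1052, salt plus silicon against silicon from 480 to 1933, salt against control from 444 to 1885, and interactions among salt calls from 3 to 70. Where this left 1 silicon library, it was assumed to vary like the other groups. The lowest level group held 13.7% to 18.8% of calls, and the ID-order shares ran from 8.01% to 11.2% for higher and 4.55% to 13.2% for lower genes. Same-sign shares ran from 69.3% to 93.2% and 48.2% to 76.0% for higher and lower genes chosen with silicon, and from 20.0% to 88.6% and 55.6% to 100% for those chosen without. The difference with salt ran from -101898 to -88239 in summed RPKM, -34.3 to 113 in genes at 0 and -0.31 to 0.52 in median RPKM. The salt calls of Csa3G818250, Csa3G874380, Csa7G432480, Csa5G366670 and Csa3G646510 held in each of these fits. Causes were not tested. Absolute depth is unknown, which leaves the precision of low genes unstated.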

Other observations

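Outside the salt term, 874 genes were called for salt plus silicon minus silicon and 588 for salt minus control in the fit of 4 group means without being called for the salt term.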
